A study of Homo sapiens with 12 samples.

Results

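The 9 genes described here encode ribosome biogenesis factors and were followed across the 4 arms of a drug study in SK-MEL-2, an established human melanoma cell line. They are NOLC1, LYAR, BOP1, NOP16, MRTO4, NIP7, WDR74, NOB1 and RRP12. They were taken from a fixed list of 9 names, each represented by the probe set with the highest mean over the 12 arrays. All 9 were measured, each by 1 named probe set, among 14582 named genes. The list was drawn up with earlier results of these data known, so the direction of its members in the comparisons with DMSO is not independent evidence.

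Each arm held 3 Affymetrix arrays of total RNA, taken after 24 hours of treatment. Cells in the DTE arm received dabrafenib at 100 nM, trametinib at 10 nM and entinostat at 1 µM. DT cells received dabrafenib and trametinib at the same doses, E cells received entinostat alone at the same dose, and DMSO cells received vehicle. Dabrafenib is a RAF inhibitor, trametinib acts on MEK1 and MEK2 one step below, and entinostat blocks histone deacetylases of class I. The arms allow the question of what MAPK pathway inhibition and histone deacetylase inhibition each change and whether their effects add up. All arms came from 1 cell line. Replicates are biological by their titles and technical by the design text, and each p-value therefore reflects no more than array-to-array spread, which may be technical.

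A ribosome is built in the nucleolus, where RNA polymerase I transcribes the precursor of most ribosomal RNAs. The precursor is modified by small nucleolar ribonucleoproteins, folded, cut and joined to ribosomal proteins with the help of a large set of assembly factors that are absent from the finished ribosome. The small (40S) and large (60S) subunits then leave the nucleus and mature in the cytoplasm. In growing cells the pathway takes up a large share of transcription and energy, and many of its genes are known targets of the transcription factor MYC, whose level and stability respond to ERK signalling.

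Promoter sequences from RefSeq (GRCh38.p14) were held for 6 of the 9 genes, LYAR, NOB1, MRTO4, NOP16, WDR74 and NIP7, as 8 windows of 300 bases, 250 before and 50 after a transcript start. They are shown because the 9 genes moved together and because MYC and the ETS factors downstream of ERK bind short known motifs. The E-box CACGTG bound by MYC, the ETS-type motif CCGGAAG and an NRF1-type motif of 10 letters were searched on both strands. The ETS-type motif was added after the data were seen, and the NRF1-type motif after the letters had been read. Each line below gives 30 bases on the strand of the gene, 5′ to 3′, with the matched letters in capitals.
LYAR, chr4:4290066-4290095, minus strand: gcggcgagtcCACGTGctccccgcggccgg
LYAR, chr4:4290157-4290186, minus strand: tggccgcggtGCGCAGGCGCgctgggtggt
MRTO4, chr1:19251809-19251838, plus strand: tcttccgccgCACGTGgattcagcgcgatg
NOP16, chr5:176388598-176388627, minus strand: ttgtgcacgcCTTCCGGAAGgagtttgtta
WDR74, chr11:62839586-62839615, minus strand: acacgctgcgCCGGAAGtgtgaactgtctg
NIP7, chr16:69339567-69339596, plus strand: cgtcacttccCTTCCGGaccacaaggggcg
NOB1, chr16:69755048-69755077, minus strand: cggcgtcgctGCGCATGCGCgcgagtagag
NOB1, chr16:69754923-69754952, minus strand: caagctccgtGCGCATGCGCgctcccctct

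The E-box lay 64 bases before 1 of the 2 LYAR starts and at base 15 of the MRTO4 transcript. In NOP16 the ETS-type motif stood on both strands, overlapping in a 10-base palindrome that began 19 bases before the start. WDR74 held it 15 bases before 1 of its 2 starts and NIP7 held it 195 bases before its start. NOB1 held the NRF1-type motif at 141 and at 16 bases before its start. CACGTG occurred in 2 of the 6 genes, beside 11.0% of the 10562 tested genes with a promoter, 8.78% of all 27305 genes in the promoter table and 39 of 134 genes (29.1%) of the wider ribosome biogenesis lists described below. CCGGAAG occurred in 3 of the 6, beside 17.1% of tested genes, 12.2% of all genes and 41.0% of the wider lists. The NRF1-type motif occurred in 2 of the 6, LYAR and NOB1, beside 9.91% of tested genes, 6.98% of all genes and 14.2% of the wider lists. A match describes letters only.

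Arrays differed in overall level, which bears on every value below. The geometric mean intensity of genes brighter than the median gene was 65.5 ± 3.78 in DTE, 103 ± 7.22 in DT, 143 ± 18.7 in E and 129 ± 15.0 in DMSO (mean ± SD, n = 3 each). The sources used here do not state how the deposited values were scaled between arrays. Fewer cells and less RNA per cell cannot be told apart from such a scaling. Each difference is therefore given on the deposited values and again after quantile normalization, which sets all arrays to 1 distribution, as the quantile value. Differences are log2 differences with the standard error (SE) of a limma fit over all 12 arrays and Benjamini-Hochberg adjusted p over 14582 genes, with a threshold of 0.05. "Fell" and "rose" refer to deposited values past that threshold unless quantile normalization is named. The median gene differed by -0.54 in DTE, -0.12 in DT and 0.14 in E against DMSO. Melanocyte markers were present in every arm. The 7 measured ones summed to 2427 to 2630 in DTE, 4205 to 4734 in DT, 4252 to 6092 in E and 5044 to 5737 in DMSO. S100B was the largest part of that sum in every arm, and TYRP1 was at or below 37.2 on every array. The 7 measured markers of other cell types summed to 173 to 180 in DTE, 266 to 305 in DT, 291 to 348 in E and 262 to 312 in DMSO. CD68 made up most of that sum, and the fibroblast gene DCN was at or below 4.88 on every array. EPCAM and LUM averaged 52.1 and 13.8 in E, against 29.5 and 6.41 in DMSO, while CD68 averaged 199 in E and 201 in DMSO.

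All 9 genes were lower on every DTE array and on every DT array than on every DMSO array, and 7 of the 9 were lower on every E array as well. Of all genes, 63.6% were lower without overlap in DTE, 29.7% in DT and 5.86% in E. The genes are described below by the step they serve, first those of the nucleolar rRNA machinery, then those of 60S assembly, then those of the 40S branch.

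NOLC1 is a nucleolar phosphoprotein that chaperones small nucleolar ribonucleoproteins. Its intensity was 252, 279 and 273 on the DTE arrays and 405, 398 and 395 on the DT arrays. It was 677, 723 and 816 on the E arrays, against 1046, 1095 and 923 on the DMSO arrays. The 4 arms did not overlap in deposited values, and DTE was lowest. NOLC1 differed from DMSO by -1.93 ± 0.13 in DTE (quantile -0.92), by -1.35 ± 0.13 in DT (quantile -1.03) and by -0.47 ± 0.13 in E (quantile -0.56) relative to DMSO.

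LYAR is a nucleolar zinc finger protein that takes part in rRNA transcription and processing. It measured 66.5, 70.5 and 71.9 in DTE and 88.7, 89.7 and 81.1 in DT. The E arrays gave 277, 295 and 374, against 380.5, 353 and 315 in DMSO. The E and DMSO arrays overlapped, while every DTE and DT array lay below every E and DMSO array. LYAR differed from DMSO by -2.32 ± 0.14 in DTE (quantile -1.25) and by -2.01 ± 0.14 in DT (quantile -1.65). In DT this was the 28th lowest difference of 14582 genes. The E difference was -0.16 ± 0.14, with a 95% interval from -0.44 to 0.13 (adjusted p = 0.46, limma), and -0.24 after quantile normalization (adjusted p = 0.072). LYAR did pass in E under median centring of the arrays (-0.44, adjusted p = 0.0016), centring on the brighter genes (-0.28, adjusted p = 0.037) and array weights (-0.27, adjusted p = 0.013).

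BOP1 forms, with PES1 and WDR12, a complex needed for maturation of the large-subunit rRNAs. It measured 102, 101 and 101 in DTE and 137, 127 and 153 in DT. Values in E were 324, 400 and 363, against 430, 448 and 361 in DMSO. As for LYAR, E overlapped DMSO and both arms with MAPK inhibition lay far below. BOP1 differed from DMSO by -2.02 ± 0.14 in DTE (quantile -0.93) and by -1.57 ± 0.14 in DT (quantile -1.23). The E difference was -0.19 ± 0.14, with a 95% interval from -0.47 to 0.10 (adjusted p = 0.35, limma), and after quantile normalization BOP1 passed the threshold at -0.27 (adjusted p = 0.033). It also passed under median centring (-0.47, adjusted p = 0.0022) and centring on the brighter genes (-0.32, adjusted p = 0.022).

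NOP16 is a nucleolar protein that in yeast belongs to early 60S particles. It measured 74.7, 89.6 and 79.6 in DTE and 151, 151 and 154 in DT. E arrays measured 208, 257 and 285, against 406, 395 and 333 in DMSO. Each arm stood apart from the next in deposited values. NOP16 differed from DMSO by -2.22 ± 0.14 in DTE (quantile -1.14), by -1.31 ± 0.14 in DT (quantile -0.97) and by -0.61 ± 0.14 in E (quantile -0.70).

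MRTO4 is related to the ribosomal stalk protein P0 and holds its place on the 60S precursor until P0 binds. It measured 44.6, 41.8 and 44.3 in DTE and 104, 82.4 and 107 in DT. In E it measured 125, 156 and 171, against 232, 220 and 207 in DMSO. The DTE arrays were the lowest by a wide margin. MRTO4 differed from DMSO by -2.33 ± 0.14 in DTE, the largest of the 9 deposited differences in that comparison (quantile -1.29), by -1.17 ± 0.14 in DT (quantile -0.79) and by -0.55 ± 0.14 in E (quantile -0.65).

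NIP7 is needed for pre-rRNA processing, and its yeast counterpart acts in 60S assembly. It measured 149, 157 and 164 in DTE and 290.4, 287 and 330.2 in DT. The E arrays gave 339, 412 and 445, against 619.9, 726 and 592 in DMSO. DT and E lay close to each other, between DTE and DMSO. NIP7 differed from DMSO by -2.04 ± 0.14 in DTE (quantile -0.95), by -1.09 ± 0.14 in DT (quantile -0.72) and by -0.70 ± 0.14 in E (quantile -0.75).

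WDR74 is a WD-repeat protein that works with the ATPase NVL and the RNA exosome on 60S precursors. It was the dimmest of the 9, at 12.9, 12.4 and 13.1 in DTE and 31.2, 26.3 and 26.3 in DT. Values in E were 26.7, 29.0 and 28.0, against 42.8, 59.4 and 40.7 in DMSO. DT and E overlapped, which no other member's arrays did. WDR74 differed from DMSO by -1.87 ± 0.15 in DTE (quantile -1.45), by -0.75 ± 0.15 in DT (quantile -0.52) and by -0.75 ± 0.15 in E (quantile -0.92). At its lowest WDR74 stood at 1.08 times an array's estimated background, taken as the 0.95 quantile of the dimmest 25% of genes, whereas the other 8 genes stayed at 3.64 times or more on every array. The part of background in its DTE values was not tested.

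NOB1 is the endonuclease that makes the final cut at the 3′ end of the 18S rRNA in late 40S precursors. It measured 141, 167 and 133 in DTE and 258, 260 and 282 in DT. E arrays measured 383, 491 and 473, against 693, 756 and 682 in DMSO. No arm overlapped another. NOB1 differed from DMSO by -2.28 ± 0.14 in DTE (quantile -1.18), by -1.41 ± 0.14 in DT (quantile -1.06) and by -0.67 ± 0.14 in E (quantile -0.73).

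RRP12 is an export factor for ribosomal subunits, described in yeast for both and best known for the 40S precursor. It measured 79.5, 90.3 and 95.0 in DTE and 155, 135 and 164 in DT. In E it measured 221, 245 and 269, against 386, 398 and 335 in DMSO. The arms were again separate. RRP12 differed from DMSO by -2.08 ± 0.14 in DTE (quantile -0.99), by -1.30 ± 0.14 in DT (quantile -0.96) and by -0.61 ± 0.14 in E (quantile -0.70).

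**Figure D1:**
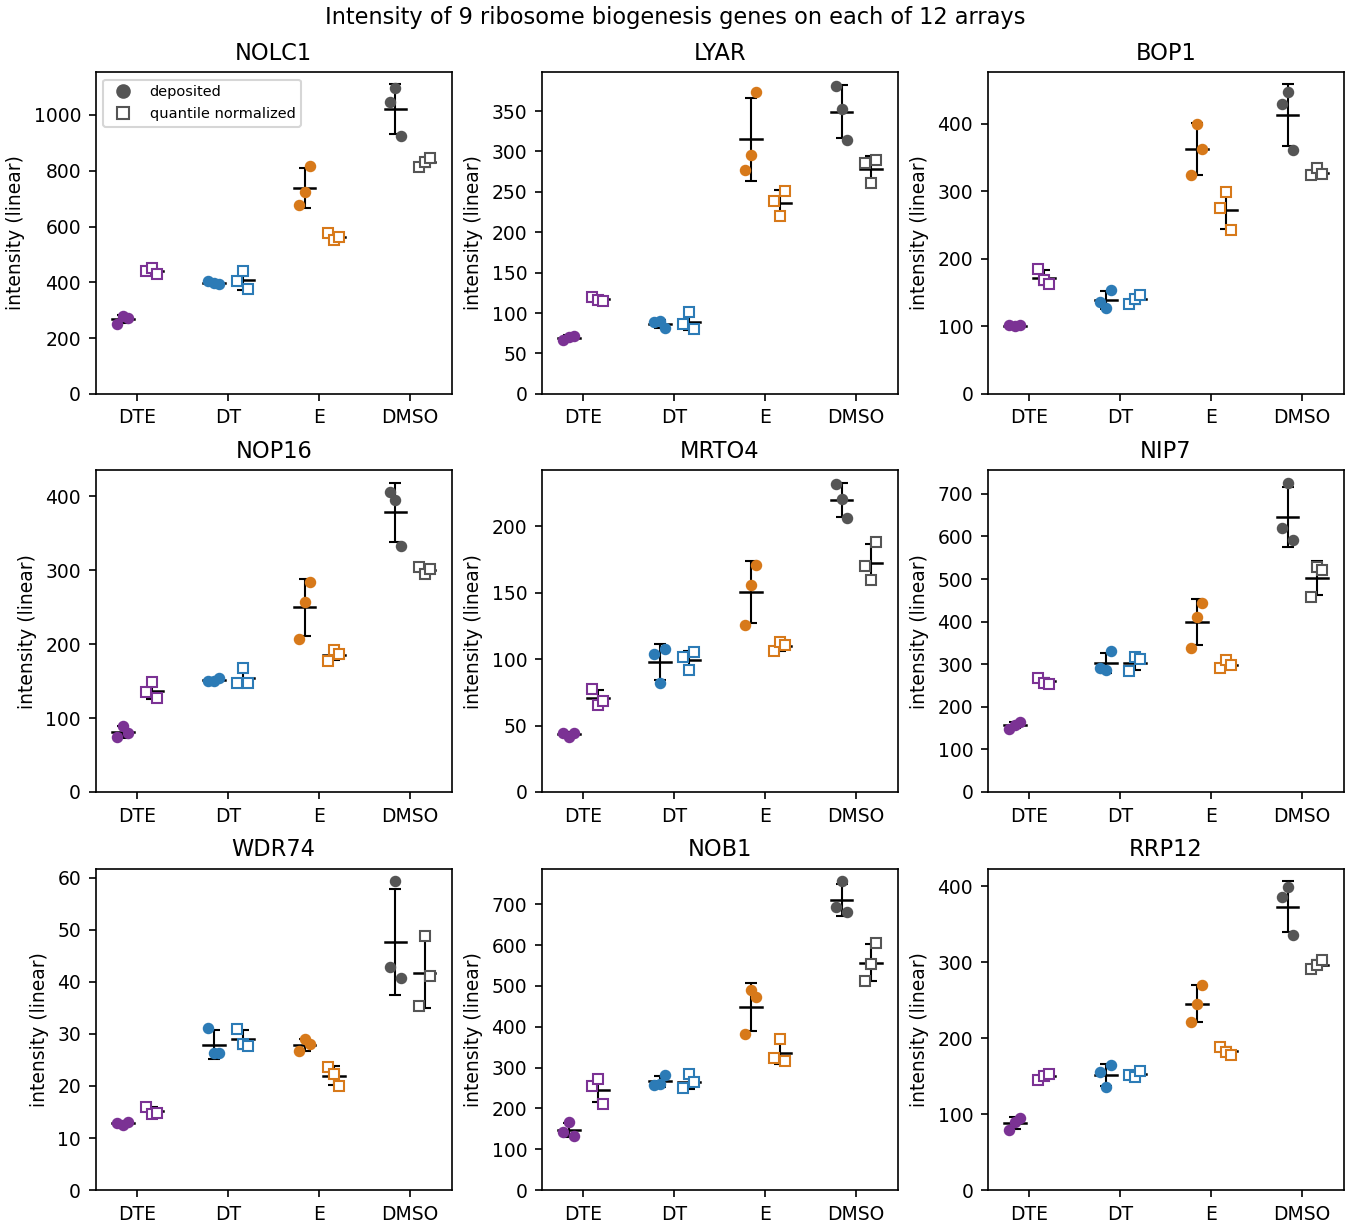
Intensity (linear, y axis from 0) of each of the 9 genes on the 3 arrays of DTE, DT, E and DMSO. Filled circles are deposited values, open squares are quantile-normalized values, and black lines and bars are mean ± SD (n = 3). In deposited values DTE is lowest for every gene and DMSO highest, with E next to DMSO for LYAR and BOP1 and level with DT for WDR74.

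In deposited values DMSO was highest, then E, DT and DTE, for all 9 genes. Neighbours in that order that did not differ past the threshold were DMSO and E for LYAR and BOP1, DT and DTE for LYAR (adjusted p = 0.059), and E and DT for WDR74 (adjusted p = 0.99). After quantile normalization DMSO stayed highest for all 9, but DTE lay above DT for NOLC1, LYAR and BOP1, and E lay below DT for WDR74 and NIP7. When the arrays were centred on the brighter genes, WDR74 lay higher in DTE than in E (0.052, adjusted p = 0.74). Which arm was lowest therefore depended on the scaling for NOLC1, LYAR, BOP1 and WDR74.

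With dabrafenib plus trametinib all 9 genes fell relative to DMSO, by 1.69-fold for WDR74 to 4.03-fold for LYAR. Of all genes tested, 23.1% fell in this comparison in deposited values, and 14.6% were lower after quantile normalization, where all 9 members were lower as well. The median member differed by -1.31 (quantile -0.97), against -0.12 for the median of all genes (quantile 0.004). The 2 genes of the nucleolar rRNA machinery and BOP1 had 3 of the 4 largest falls, with NOB1 between them, while WDR74 and NIP7 had the smallest. Leaving out any 1 array left all 9 calls in place.

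With entinostat alone 7 of the 9 genes fell in deposited values, WDR74, NIP7, NOB1, RRP12, NOP16, MRTO4 and NOLC1, by 1.38-fold to 1.68-fold. In this comparison 4.81% of all genes fell and 20.8% rose. After quantile normalization BOP1 was also lower, which made 8 of 9, beside 16.3% of all genes. Under median centring and under centring on the brighter genes LYAR passed too, which made 9 of 9, so the calls for LYAR and BOP1 in E depended on the scaling. The share of all genes lower under these 2 settings is not given here. The median member differed by -0.61 (quantile -0.70), against 0.14 for all genes (quantile -0.04). The call for NOLC1 was lost without DMSO replicate 2 (-0.42, adjusted p = 0.052, limma).

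DT and E do not share arrays, and DT was set against E after the data were seen. The log2 difference of DT from E was -1.86 ± 0.14 for LYAR (quantile -1.41) and -1.38 ± 0.14 for BOP1 (quantile -0.96). For NOLC1, NOB1, NOP16, RRP12 and MRTO4 the difference lay between -0.88 and -0.62 (quantile -0.47 to -0.15), and all 5 passed in deposited values. Of these, MRTO4 did not pass after quantile normalization (adjusted p = 0.24). NIP7 differed by -0.39 ± 0.14 (adjusted p = 0.026) and by 0.02 after quantile normalization (adjusted p = 0.87). WDR74 differed by -0.002 ± 0.15, with a 95% interval from -0.30 to 0.30, and was higher in DT after quantile normalization (0.40, adjusted p = 0.011). In all, 8 of 9 members were lower in DT than in E, beside 41.4% of all genes, and 6 of 9 after quantile normalization, beside 18.8%. WDR74 was the 1 member higher there, beside 20.4% of all genes.

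All 3 agents together lowered all 9 genes relative to DMSO, by 3.66-fold for WDR74 to 5.04-fold for MRTO4. This comparison called 60.8% of all genes lower in deposited values and 22.4% after quantile normalization, where all 9 members again passed. The median member differed by -2.08 (quantile -1.14), against -0.54 for all genes (quantile -0.03). In deposited values the 9 genes stood at 19.8% to 27.3% of DMSO in DTE, a narrower span than the 24.8% to 59.3% of DT and the 59.4% to 89.8% of E. The mean level of genes brighter than the median gene was 50.8% of DMSO in DTE, 79.9% in DT and 111% in E. All members but WDR74 are that bright, so the median of all genes is a lenient comparison for them. After quantile normalization they stood at 36.6% to 53.0% in DTE.

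Entinostat on top of dabrafenib plus trametinib gave results that turned on the scaling. In deposited values 8 of the 9 genes were lower in DTE than in DT, beside 54.0% of all genes, and LYAR measured -0.31 ± 0.14 (adjusted p = 0.059, limma). The largest falls were those of MRTO4 (-1.16 ± 0.14) and WDR74 (-1.12 ± 0.15). After quantile normalization MRTO4 (-0.49, adjusted p = 9.8e-04), WDR74 (-0.93, adjusted p = 2.7e-05) and NIP7 (-0.22, adjusted p = 0.049) were lower in DTE, beside 17.9% of all genes. BOP1 (0.30, adjusted p = 0.018) and LYAR (0.40, adjusted p = 0.0048) were then higher in DTE, beside 16.4% of all genes. NOP16, NOB1, RRP12 and NOLC1 lay between -0.17 and 0.12 and did not pass. MRTO4, WDR74 and NIP7 were thus lower in DTE than in DT under either scaling. NIP7 passed only narrowly after quantile normalization, and WDR74 was close to background in DTE.

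Dabrafenib plus trametinib on top of entinostat came with a fall of all 9 genes in deposited values, beside 78.5% of all genes. All members but WDR74 are brighter than the median gene, as are 7283 other genes. When only such bright genes were tested, 7203 were lower and 6 higher, so a fall did not set the bright members apart. LYAR differed most, by -2.17 ± 0.14 (quantile -1.02), followed by BOP1 at -1.83 ± 0.14 (quantile -0.66) and MRTO4 at -1.78 ± 0.14 (quantile -0.64). After quantile normalization 8 of the 9 were lower, beside 9.99% of all genes. The exception was NIP7 (-0.20, adjusted p = 0.10, limma). WDR74 did not pass under median centring (-0.19, adjusted p = 0.23) or centring on the brighter genes (0.052, adjusted p = 0.74), and NIP7 did not pass under the second of these (-0.16, adjusted p = 0.13). DTE shares its arrays between these comparisons and the one with DMSO, so they are not independent of each other.

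**Figure D2:**
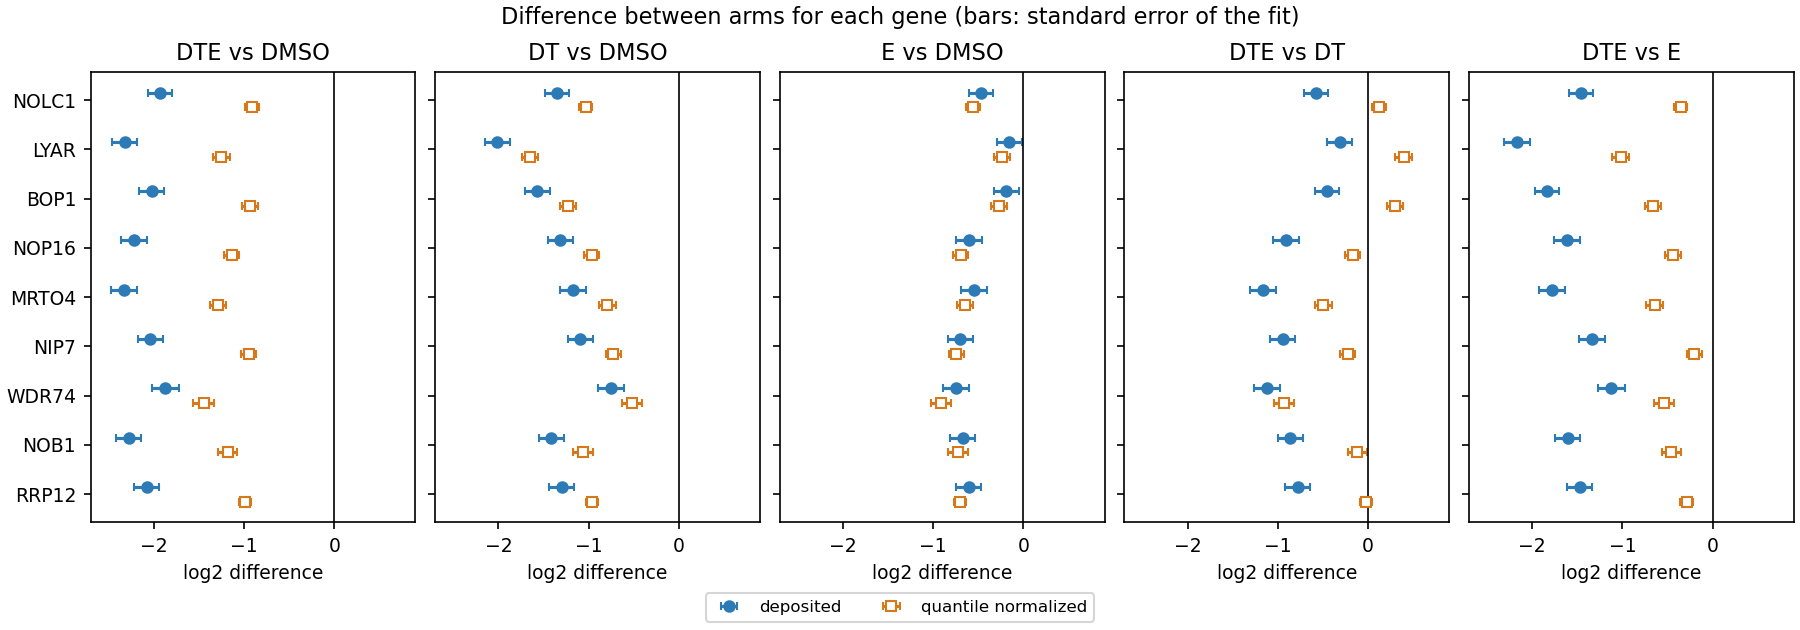
Log2 difference between arms (x axis) for each of the 9 genes, DTE, DT and E each against DMSO, then DTE against DT and DTE against E. Filled circles are deposited values, open squares are quantile-normalized values, and bars are the SE of the limma fit on 3 arrays per arm. All points of the first 3 panels lie below 0, and in DTE against DT the quantile-normalized values of NOLC1, LYAR and BOP1 lie above 0.

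Additivity was tested as the interaction, the difference of DTE from DT minus the difference of E from DMSO. On the log2 scale a value of 0 means that the 2 effects add. In deposited values MRTO4 passed, at -0.61 ± 0.20 (adjusted p = 0.014, limma), with DTE at 65.6% of the level that adding the separate effects would give. The other 8 genes lay between -0.37 and -0.11, and DTE stood at 77.5% to 92.7% of the additive level. Of all genes, 62.5% had a negative interaction past the threshold, with a median of -0.63 for all genes beside -0.24 for the members. After quantile normalization the sign turned for 8 of the 9. NOLC1 (0.68), RRP12 (0.67), LYAR (0.63), NOB1 (0.61), BOP1 (0.57), NOP16 (0.53) and NIP7 (0.52) then passed with positive values, beside 2.08% of all genes, and their DTE level was 144% to 160% of the additive one. MRTO4 (0.15, adjusted p = 0.61) and WDR74 (-0.02, adjusted p = 0.97) did not pass there. The same 7 genes passed with positive values under both centrings, where many more of all genes did so. These were 1872 genes under median centring and 2656 under centring on the brighter genes, against 303 after quantile normalization, of 14582 tested. Which sign the departure has cannot be settled without the scaling of the arrays.

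**Figure D3:**
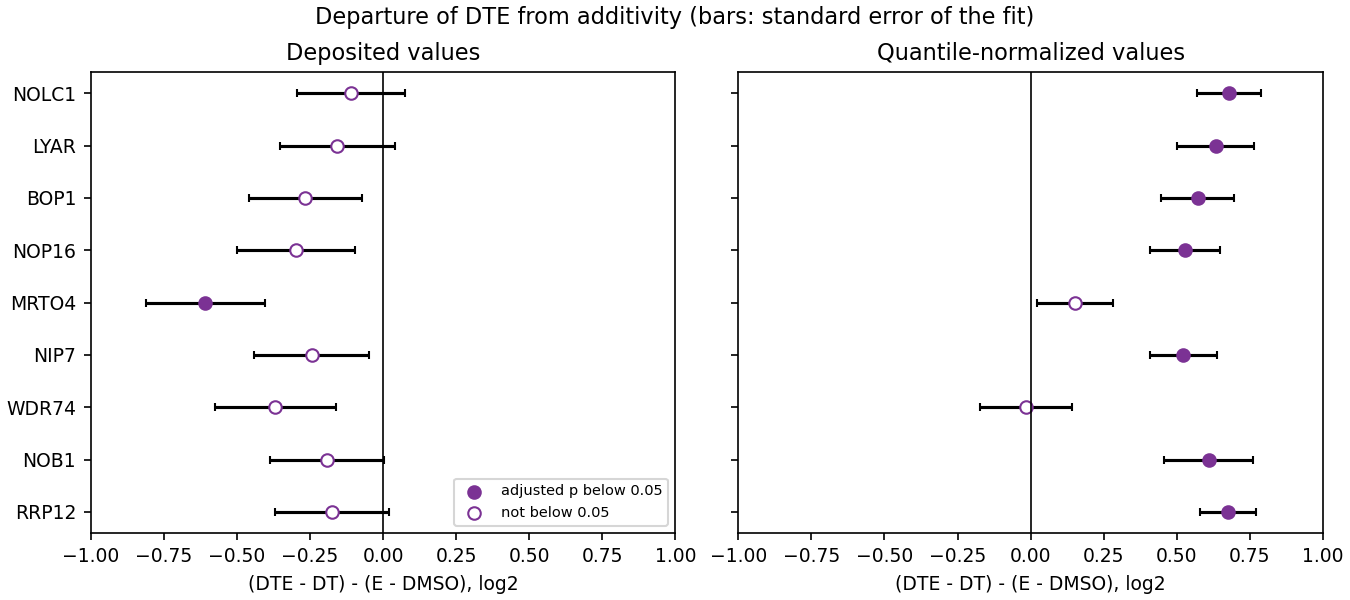
Interaction of the 2 treatments (x axis, log2, difference of DTE from DT minus that of E from DMSO) for the 9 genes in deposited values and after quantile normalization, with bars of 1 SE. Filled points passed an adjusted p of 0.05: MRTO4 alone, at -0.61, in deposited values, and 7 other genes at 0.52 to 0.68 after quantile normalization.

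The wider pathway was described with 7 further lists that hold no member, 153 genes in all, of which 108 were measured by a named probe set. Relative to DMSO, 100 of the 108 fell in DT in deposited values, beside 23.1% of all genes, with a median of -0.84 against -0.12 for all genes. After quantile normalization 89 were lower, beside 14.6% of all genes, and 2 were higher, with a median of -0.50. In DTE all 108 fell, beside 60.8% of all genes, with a median of -1.54. After quantile normalization 89 were lower in DTE, beside 22.4% of all genes, and 1 was higher, with a median of -0.54. In E 21 fell, beside 4.81% of all genes, with a median of -0.18. Without DMSO replicate 1 the count was 8, with 1 gene higher, and without DMSO replicate 2 it was 11. Median centring called 80 genes lower, and the share of all genes under that setting is not given here. After quantile normalization 60 were lower in E, beside 16.3% of all genes, and 1 was higher, with a median of -0.28. These shares of all genes are also those to set beside the counts of each list below. The median of the 9 members lay below each of the 7 list medians in these 3 comparisons under both scalings, as a description of a list chosen with results known.

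RNA polymerase I factors and nucleolar chaperones fell in DT in 7 of 7 measured genes. The list held 20 genes, and the rest, among them POLR1A, POLR1B, UBTF and NPM1, had no named probe set. TCOF1, the treacle protein that supports rDNA transcription, measured 87.3 ± 6.74 in DTE, 119.8 ± 10.1 in DT, 263 ± 48.2 in E and 311 ± 61.8 in DMSO (SD, n = 3 each). Its DT difference was -1.36 ± 0.16, and it also passed after quantile normalization (adjusted p = 2.3e-06). The histone chaperone NPM3 differed from DMSO by -1.96 ± 0.14 in DTE (quantile -0.87), by -1.12 ± 0.14 in DT (quantile -0.78) and by -0.44 ± 0.14 in E (quantile -0.51). The polymerase subunit POLR1H differed from DMSO by -1.76 ± 0.14 in DTE (quantile -0.71) and by -0.45 ± 0.14 in E (quantile -0.55). In E 3 of the 7 fell.

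Genes of the small subunit processome, which assembles on the 5′ part of the precursor, fell in DT in 23 of 24 cases. WDR36 differed from DMSO by -1.04 ± 0.13 (quantile -0.70) and NOL6 by -1.15 ± 0.15 (quantile -0.81) in DT. In DTE NOL6 differed from DMSO by -2.20 ± 0.15 (quantile -1.12) and PWP2 by -1.99 ± 0.14 (quantile -1.08). In E 4 of the 24 fell, among them the helicase DDX49 (-0.71 ± 0.14, quantile -0.81) and the methyltransferase EMG1 (-0.60 ± 0.14, quantile -0.70). The small nucleolar ribonucleoprotein list fell in DT in 11 of 11 genes, with NOP58 at -0.93 ± 0.14 (quantile -0.54) and the methyltransferase fibrillarin, FBL, at -0.84 ± 0.13 (quantile -0.55). In DTE the assembly ATPase RUVBL2 (-1.54 ± 0.13, quantile -0.46) and the box C/D protein SNU13 (-1.69 ± 0.15, quantile -0.61) had the smallest adjusted p of this list. In E 0 of the 11 passed limma's test, and 3 had an unadjusted p under 0.05, counted in either direction. Differences in E ran from -0.33 to 0.38, and 4 genes were lower after quantile normalization.

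Of the 60S assembly genes 34 of 36 fell in DT. The nucleolar protein RRP1B measured 54.2 ± 6.12 in DTE and 69.1 ± 5.69 in DT, 164 ± 31.4 in E and 191 ± 17.2 in DMSO. Its DT difference was -1.47 ± 0.15 (quantile -1.08), and that of NLE1, a partner of the remodelling ATPase MDN1, was -1.52 ± 0.17 (quantile -1.15). In DTE PAK1IP1 (-2.22 ± 0.14, quantile -1.12) and the helicase DDX56 (-2.13 ± 0.14, quantile -1.05) had the smallest adjusted p. In E 9 of the 36 fell, with WDR18 (-0.82 ± 0.14, quantile -0.92) and DDX56 (-0.57 ± 0.14, quantile -0.66), and 23 were lower after quantile normalization. In the list of 60S export and cytoplasmic release 6 of 7 fell in DT, among them the export adaptor NXT1 (-1.25 ± 0.15, quantile -0.86) and the GTPase LSG1 (-0.89 ± 0.14, quantile -0.50). In DTE NXT1 (-2.06 ± 0.15) and SBDS, which helps to release EIF6 (-1.41 ± 0.13, quantile -0.48), had the smallest adjusted p. In E 0 of these 7 passed limma's test and 0 had an unadjusted p under 0.05, while 2 were lower after quantile normalization.

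Late 40S maturation was the list with the smallest median in DT, -0.59 (quantile -0.24), and 7 of 9 genes fell. PNO1, the partner of NOB1, differed from DMSO by -1.26 ± 0.14 (quantile -0.87) and the kinase RIOK1 by -1.07 ± 0.14 (quantile -0.71). In DTE BYSL (-1.88 ± 0.14, quantile -0.92) and PNO1 (-1.76 ± 0.14, quantile -0.68) had the smallest adjusted p. RIOK3, a kinase of the same family as RIOK1, was singled out after its values were seen. In deposited values it differed from DMSO by -0.60 ± 0.15 in DTE (adjusted p = 0.0014), by 0.08 ± 0.15 in DT (adjusted p = 0.78) and by 0.36 ± 0.15 in E (adjusted p = 0.087). After quantile normalization it was higher in DTE (0.44), DT (0.45) and E (0.28), each past the threshold. In E 0 of the 9 passed limma's test in deposited values, and 3 had an unadjusted p under 0.05, counted in either direction. Differences in E ran from -0.36 to 0.36, the highest being that of RIOK3. After quantile normalization 3 were lower. Of the RNA exosome, which trims rRNA precursors, 12 of 14 genes fell in DT and 5 in E. EXOSC5 measured 90.4 ± 7.02 in DTE, 216 ± 6.46 in DT, 286 ± 29.4 in E and 486 ± 59.7 in DMSO. It differed from DMSO by -2.42 ± 0.14 in DTE (quantile -1.32), by -1.17 ± 0.14 in DT (quantile -0.82) and by -0.76 ± 0.14 in E (quantile -0.84). EXOSC4 differed from DMSO by -2.38 ± 0.13 in DTE (quantile -1.31) and by -0.66 ± 0.13 in E (quantile -0.76), and EXOSC8 by -1.34 ± 0.14 in DT (quantile -0.98). EXOSC10, a nuclease of the complex, was likewise singled out after its values were seen. It differed from DMSO by -1.91 ± 0.14 in DTE (quantile -0.83), by -0.08 ± 0.14 in DT (adjusted p = 0.75) and by -0.46 ± 0.14 in E (quantile -0.51). In DT it was higher after quantile normalization (0.27, adjusted p = 0.0071).

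**Figure D4:**
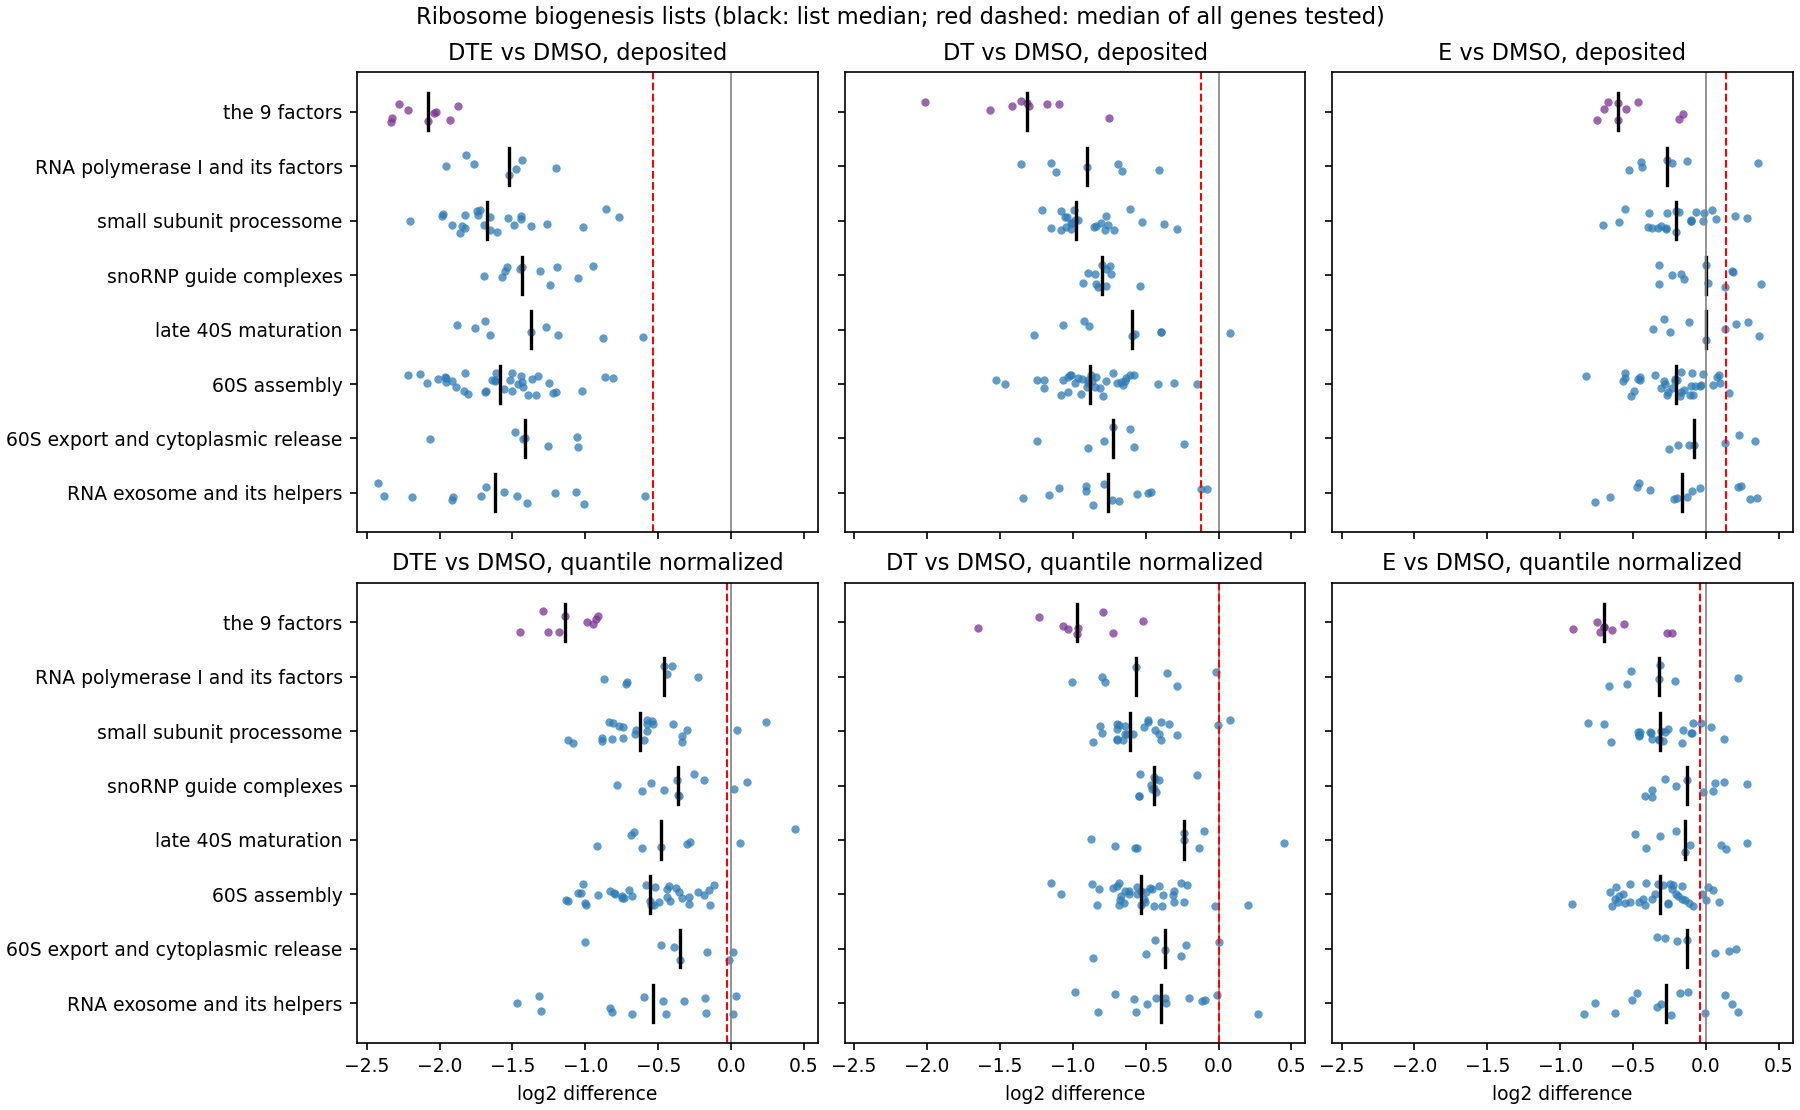
Log2 difference from DMSO (x axis) of the 9 factors and of the measured genes of 7 further ribosome biogenesis lists, for DTE, DT and E, in deposited values (upper row) and after quantile normalization (lower row). Each point is a gene, black bars are list medians and the red dashed line is the median of all genes tested. In DT the list medians run from -0.97 to -0.59 in deposited values, against -1.31 for the 9 factors.

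MYC, the E-box binding factor, measured 30.1, 33.3 and 39.8 in DTE and 47.8, 36.0 and 39.5 in DT. The E arrays gave 75.0, 106 and 108, against 261, 277 and 198 in DMSO. MYC differed from DMSO by -2.83 ± 0.17 in DTE (quantile -1.85), by -2.57 ± 0.17 in DT (quantile -2.18) and by -1.35 ± 0.17 in E (quantile -1.45). Its interaction was 1.10 ± 0.24 (adjusted p = 8.6e-04) and 1.78 after quantile normalization, positive under both scalings, unlike that of the 9 members in deposited values. The E difference of MYC was larger than that of any of the 9.

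Between members, the 36 pairwise Pearson correlations of log2 values over the 12 arrays had a median of 0.97 and ranged from 0.76 to 0.995, and after quantile normalization the median was 0.88 and the range 0.41 to 0.985. These arrays share the level differences of the arms, so the values are a description. Of 7283 genes brighter than the median gene, the 5 closest to the mean standardized profile of the 9 members over the 12 arrays were PRR11 (r = 0.997), SNRPA (0.997), EXOSC8 (0.996), FASN (0.996) and WDR36 (0.996). After quantile normalization FASN, PRR11, WDR36, SNRPA and NPM3 led, at 0.980 to 0.987. EXOSC8, WDR36 and NPM3 belong to the wider ribosome biogenesis lists, FASN encodes fatty acid synthase and SNRPA a protein of the U1 spliceosomal particle. FASN measured 82.5 ± 4.80 in DTE, 159 ± 21.0 in DT, 290.3 ± 51.3 in E and 498 ± 76.4 in DMSO (SD, n = 3 each).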

How the data were processed

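The authors deposited 1 linear intensity per probe set and array, ranging from 2.35 to 8595 over 12 Affymetrix arrays. RMA and Transcriptome Analysis Console are named, without versions, per the submitters' processing notes. Array medians ran from 16.8 to 31.9, so the arrays were not on a common distribution, and the sources used here do not describe the rescaling. Log2 was taken with no pseudocount or filter. The platform's probe table and RefSeq symbols named 14750 of 29398 probe sets, which gave 14582 genes. The other 14648 probe sets are not analysed here. The probe set with the highest mean stood for a gene. All 12 arrays were fitted in limma 3.58.1 under R 4.3.3, with eBayes moderation, 1 mean per arm and Benjamini-Hochberg adjustment. The number of arrays limits the precision. The procedure was tested on simulated data. Those data held no difference in overall level between arrays, so the test does not bear on the scaling. The members, lists and tests were chosen with earlier results of these data known. Named from the wider lists were the 2 genes per list with the smallest adjusted p in each comparison with DMSO, with MYC, and the 5 genes closest in profile. RIOK3 and EXOSC10 fall outside this rule and were picked after their values were seen. DT against E and 2 of the motifs were added after the data were seen. Alternatives were quantile normalization, median centring, centring on the brighter genes, leaving out each array, a replicate block, eBayes with trend and robust options, only the arms compared, array weights, a filter on dim genes and averaged probe sets. Same-numbered arrays of different arms had correlations of deviations from -0.22 to 0.13, over 0.1 in 2 of 18 pairs, so the replicate numbers were not taken to pair arrays.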

Additional observations from a re-analysis of the deposited data

Results flagged for a closer look

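In deposited values the effect of dabrafenib plus trametinib on MRTO4 differed with and without entinostat. The interaction was -0.61 ± 0.20 on the log2 scale (adjusted p = 0.014, limma), close to the median of all genes, -0.63. DTE measured 44.6, 41.8 and 44.3, below each DT array and each E array. In deposited values 62.5% of all genes had a negative interaction past the threshold. After quantile normalization the interaction of MRTO4 was 0.15 (adjusted p = 0.61, limma). It was 0.12 under median centring (adjusted p = 0.58) and 0.22 under centring on the brighter genes (adjusted p = 0.26). The part of the overall array level in this result was not tested.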

How the results depend on the processing

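Of 1119 recomputed member differences, 1060 kept their direction and side of the threshold, 11 lost and 14 gained a call, and 34 changed sign. All 188 of DT against DMSO and all 188 of DTE against DMSO were kept. The total includes settings that could change little or nothing. Averaged probe sets repeat the main values, since each member has 1 named probe set. Leaving out an array of another arm keeps the difference itself. Of 54 differences each, 38 were kept under quantile normalization, 39 under median centring and 36 under centring on the brighter genes. The sign changes came from between-array scaling in DTE against DT, DTE against E and the interaction. In DTE against DT, LYAR measured 0.40, 0.13 and 0.38 under quantile normalization, median centring and centring on the brighter genes, BOP1 measured 0.30 and 0.24 and NOLC1 0.12 and 0.12 under the first and the last, and WDR74 measured 0.052 in DTE against E under the last. The interaction under the same 3 settings was 0.63, 0.57 and 0.67 for LYAR, 0.57, 0.46 and 0.56 for BOP1, 0.61, 0.54 and 0.63 for NOB1, 0.68, 0.62 and 0.72 for NOLC1, 0.15, 0.12 and 0.22 for MRTO4, 0.53, 0.43 and 0.53 for NOP16, 0.52, 0.49 and 0.58 for NIP7 and 0.67, 0.56 and 0.65 for RRP12, and for WDR74 0.36 and 0.46 under both centrings. The cause was not tested.

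Members called in E against DMSO were 8, 9 and 9 under the 3 scalings and 8 with array weights, and in DTE against E 8, 8 and 7 under the 3 scalings. For these 2 comparisons the share of all genes under the centrings is not given here. Members called were 5 (3 lower) under quantile normalization in DTE against DT. For the interaction they were 7 under each of the 3 scalings, all with positive values. With array weights they were 2, each with a negative value, and the share of all genes for that setting is not given here. Wider list genes called, in either direction, are given under quantile normalization, median centring and centring on the brighter genes in turn. In E against DMSO they were 61 (60 lower), 80 (all lower) and 58 (all lower). In DTE against DT they were 43 (29 lower), 46 (45 lower) and 48 (24 lower). For the interaction they were 15 (13 positive), 14 (12 positive) and 33 (31 positive). In DTE against E they were 52 (all lower) under the first and 56 (53 lower) under the last. Array weights gave 55 (48 lower) in E against DMSO. Genes called under quantile normalization were 6261 in DTE against DMSO (3272 lower), 4993 in DTE against DT (2607 lower) and 2923 in DTE against E (1457 lower). For the interaction they were 612 (303 positive), where the centrings gave 2540 (1872 positive) and 3125 (2656 positive). Centring on the brighter genes gave 6658 (1802 lower) in DT against DMSO, and array weights gave 7226 (2076 lower) in E against DMSO. Testing only the brighter genes, which are fewer, gave 2365 (634 lower) in E against DMSO and 7209 (7203 lower) in DTE against E.

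Without 1 array, members called were 6 to 7 in E against DMSO, 8 to 9 in DTE against DT and 1 to 2 for the interaction. The 2 came without DMSO replicate 2, each with a negative value. Wider list genes called were 9 to 26 in E against DMSO, against 21 with all arrays, with 9 without DMSO replicate 1 and 11 without DMSO replicate 2, and 47 to 86 for the interaction. With the replicate number as a block, members called were 9 in DT against DMSO and 7 in E against DMSO, and genes called were 3749 and 3387. The block changed no call of a member. For DT against E, only the recomputed values under quantile normalization are given here.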
